A study of Mus musculus with 9 samples.

Results

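The genes described here are 41 genes of the cell division cycle and its brakes, taken by symbol from a list of textbook members and by no cutoff on their values, out of 20634 genes listed for the left ventricle of the mouse heart. They comprise 21 genes of mitosis, 10 of DNA replication, 3 of entry into S phase (the G1/S step), the 3 D-type cyclins and 4 inhibitors of cyclin-dependent kinases (CDKs). All 41 passed the filter on low counts and were tested. RNA-seq libraries came from wild-type (WT) mice and from delta-sarcoglycan knockout (KO) mice, all on a C57BL/6 background, whose hearts were flushed with PBS and collected at 6 months of age. From weaning, WT vehicle (2 libraries) and KO vehicle (2 libraries) had plain drinking water. WT ifetroban (2 libraries) and KO ifetroban (3 libraries) had water delivering 25 mg/kg/day of ifetroban, a drug that blocks the thromboxane-prostanoid receptor. Mice of all groups had running wheels from time to time, which in this model brings on heart muscle disease. Delta-sarcoglycan is a membrane protein of muscle cells, and the knockout is a model of muscular dystrophy.

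Heart muscle cells of the mouse divide until shortly after birth and then leave the cycle, so that most dividing cells of an adult ventricle are endothelial cells, fibroblasts and immune cells. D-type cyclins with CDK4 and CDK6 begin the inactivation of the RB proteins, cyclin E with CDK2 completes it, and the released E2F factors switch on genes for DNA replication. Later, the B-MYB and FOXM1 complexes act on promoters of the mitosis genes. CDK inhibitors of the Cip/Kip family (Cdkn1a, Cdkn1b, Cdkn1c) and of the INK4 family (Cdkn2c) hold the cycle back, and Cdkn1a is also the best known target of p53.

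Promoters are shown for 3 members on which the results turn, because the mitosis genes, the replication genes and Cdkn1a are known for different promoter elements. RefSeq entries (GRCm38.p6) were found for 32 of the 41 genes, with 38 starts. The 120 bases before the start are printed 5′ to 3′ on the gene's own strand, and capitals mark each match to a motif on either strand. Top2a lies at chr11:99024190-99024309 (minus strand), Mcm6 at chr1:128359706-128359825 (minus strand), and the upstream and downstream starts of Cdkn1a at chr17:29090859-29090978 and chr17:29093649-29093768 (plus strand).
Top2a: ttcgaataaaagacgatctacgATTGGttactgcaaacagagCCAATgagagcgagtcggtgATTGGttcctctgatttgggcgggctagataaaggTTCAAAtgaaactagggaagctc
Mcm6: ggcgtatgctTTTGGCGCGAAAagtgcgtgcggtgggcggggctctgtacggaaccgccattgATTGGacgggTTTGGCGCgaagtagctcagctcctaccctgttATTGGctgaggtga
Cdkn1a, upstream start: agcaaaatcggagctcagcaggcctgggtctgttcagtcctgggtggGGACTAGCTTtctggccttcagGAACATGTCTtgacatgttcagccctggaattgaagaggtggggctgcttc
Cdkn1a, downstream start: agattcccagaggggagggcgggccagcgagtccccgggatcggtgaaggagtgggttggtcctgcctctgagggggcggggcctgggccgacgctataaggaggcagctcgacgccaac

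The motifs were searched in the 250 bases before each start, on both strands. Starts were counted and not genes: the 19 promoters of the mitosis genes belong to 17 genes, and the 10 of the replication genes to 9. The windows of both starts of Ect2 overlap, as do those of Prc1, so that the same match can be counted more than once. The CCAAT box (CCAAT) was present in 17 of 19 promoters of the mitosis genes (89.5%) and in 9 of 10 of the replication genes (90.0%), against 33.8% of all 32851 promoters. A cell cycle homology region (TTTGAA) was present in 8 of 19 promoters of the mitosis genes (42.1%) and 1 of 10 of the replication genes (10%), against 16.0% of all. An E2F-type motif (TTTNNCGC) was present in 3 of 10 promoters of the replication genes (30.0%) and 1 of 19 of the mitosis genes (5.26%), against 4.28% of all. The p53 recognition decamer was present in 1 of 5 promoters of the inhibitors (20%), that of the upstream start of Cdkn1a, in 3 of 19 of the mitosis genes (15.8%) and in 1 of 10 of the replication genes (10%), against 7.13% of all. These are matches of letters. Binding was not measured.

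Total counts were 21510263 to 30182955 per library, and 3 counts, taken as the floor of detection, correspond to 0.0953 to 0.154 CPM (counts scaled to library size with TMM factors). The labels do not say that replicates came from separate animals, so p-values measure only the spread between these samples, which may be technical. Sgcd, the targeted gene, was at 8.36 CPM in the library labelled WT vehicle 1, 20.9 CPM in WT vehicle 2 and 23.7 and 23.5 CPM in the WT libraries with ifetroban. In KO it was at 9.64 and 8.63 CPM with vehicle and 7.30, 12.9 and 13.3 CPM with ifetroban. The library labelled WT vehicle 1 thus lay within the KO range. Which exons were deleted is unstated in the labels, so that the level of the whole gene does not settle the label. KO ifetroban 1 is labelled ifetroban in its title and source name and vehicle in its treatment field, and was analysed as ifetroban. The libraries also fell into sets by how a gene's deviation from its mean went with transcript length. Spearman's rho over 13051 protein-coding genes, which are not independent replicates, was -0.40 to -0.52 in the library labelled WT vehicle 1, both KO vehicle libraries and KO ifetroban 1, and 0.38 to 0.43 in the other 5. Cardiomyocyte markers were high in all 9 libraries (a sum of 44989.1 to 61345.3 CPM over 9 genes), while the 9 lymphocyte markers were low (2.15 to 4.51 CPM summed, 5 of them tested).

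Mitosis genes were near the low end of what these libraries measured, and the D-type cyclins were high. Per kilobase of transcript, Ccnd2 averaged 33.1, Ccnd1 23.8 and Ccnd3 15.5 CPM. The length is that of each gene's longest transcript in GENCODE M21, so that a gene expressed mainly as a shorter transcript is set too low. Among the inhibitors Cdkn1a averaged 15.0, Cdkn1c 9.19, Cdkn1b 8.0 and Cdkn2c 3.82 CPM per kilobase. Replication genes ranged from 0.492 (Tyms, thymidylate synthase) to 13.6 (Pcna, the sliding clamp of DNA polymerases) on the same scale. Of the mitosis genes, 20 lay between 0.109 (Bub1) and 0.503 (Ccna2) CPM per kilobase, and Cenpf stood above them at 2.62. Cenpf encodes a large kinetochore protein. Ccnb2 had no count in the library labelled WT vehicle 1, which allows a level of up to 0.154 CPM there, and Bub1 had 1 count.

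The lowest and the highest values of the mitosis and replication genes fell mostly in the same pair of libraries. The library labelled WT vehicle 1 held the lowest value of 26 of the 41 genes (63.4%), where it held the lowest value of 18.7% of all genes tested. WT ifetroban 1 held the highest value of 25 of the 41 (61.0%), against 11.2% of all genes tested. Of the 21 mitosis genes, 16 were lowest in the former and 14 highest in the latter, with a median deviation from the mean of log2(CPM + 0.1) of -0.99 and 1.00. Of the 10 replication genes, 7 were lowest and 7 were highest in the same libraries. In other libraries the roles parted: the median deviation was -0.33 for the mitosis and 0.19 for the replication genes in KO vehicle 1, and 0.37 and -0.09 in WT vehicle 2. Over all genes tested the median deviation lay between -0.03 and 0.02 in each library.

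**Figure D1:**
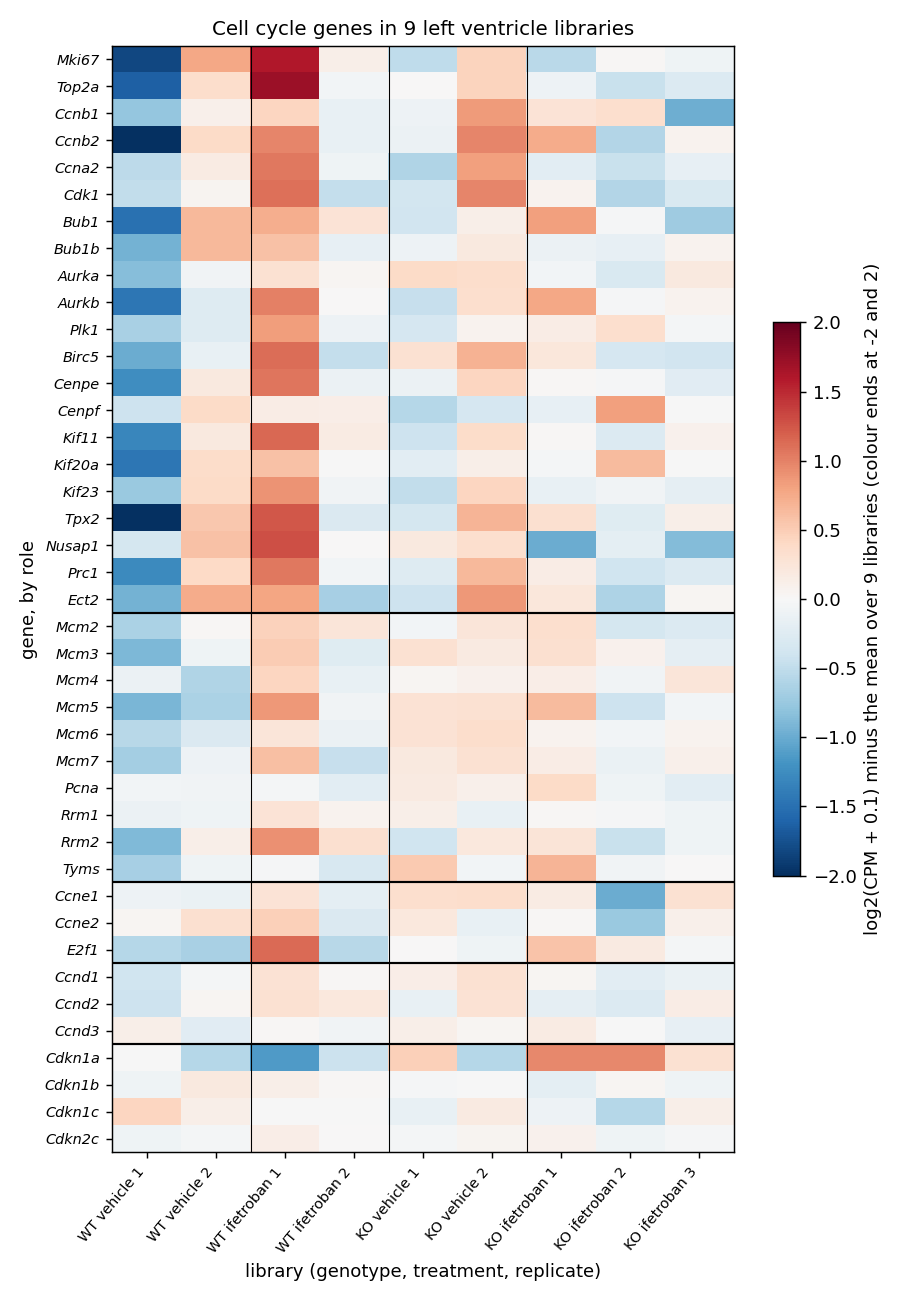
Log2(CPM + 0.1) of each of the 41 genes (rows, by role) in each of the 9 libraries (columns), minus the gene's mean over the libraries, with colour ending at -2 and 2. The column labelled WT vehicle 1 is mostly blue (lowest for 26 of 41 genes) and that of WT ifetroban 1 mostly red (highest for 25 of 41), while the rows of the D-type cyclins and inhibitors at the bottom are paler.

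The summed level shows the same extremes. Without Cenpf, the 20 other mitosis genes summed to 7.80 CPM in the library labelled WT vehicle 1, 27.7 CPM in WT vehicle 2, 48.3 and 19.5 CPM in WT ifetroban, 17.0 and 29.7 CPM in KO vehicle, then 20.1, 18.4 and 18.4 CPM in KO ifetroban. The lowest was the library labelled WT vehicle 1 and the highest WT ifetroban 1, and the KO ifetroban libraries lay close together. The 10 replication genes summed to 58.4 and 66.3, 92.2 and 68.7, 82.8 and 81.1, and 88.5, 68.6 and 70.2 CPM in the same order. In these bulk samples, fewer dividing cells and less RNA of these genes per cell cannot be told apart.

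Markers of other cell types also differed between these libraries. The 7 erythroid markers, globins among them, summed to 1647.2 CPM in the library labelled WT vehicle 1, 541.0 CPM in WT vehicle 2, 159.2 and 413.5 CPM in WT ifetroban, 1211.5 and 226.0 CPM in KO vehicle, then 688.9, 256.8 and 684.9 CPM in KO ifetroban. The library with the least mitotic RNA thus had the most globin RNA, and the library with the most mitotic RNA the least. The 8 endothelial markers summed to 703.0 CPM in the library labelled WT vehicle 1 and 764.8 to 988.5 CPM in the other 8. Not all of them were low there: Egfl7 was at its highest (109.8 CPM, with a lowest of 68.0 CPM elsewhere). Emcn was at 28.2 CPM there, in a range of 21.7 to 31.4 CPM. The endothelial sum also went with the length slope, at 703.0 to 820.0 CPM where rho was negative and 890.8 to 988.5 CPM where it was positive. The 10 macrophage markers summed to 174.0 to 228.4 CPM in WT and 300.7 to 361.4 CPM in KO, and the 8 fibroblast markers to 834.1 to 999.2 CPM in WT and 1152.2 to 1683.8 CPM in KO. No marker of these lists was at 0 in every library. Their part in the results below was not tested.

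**Figure D2:**
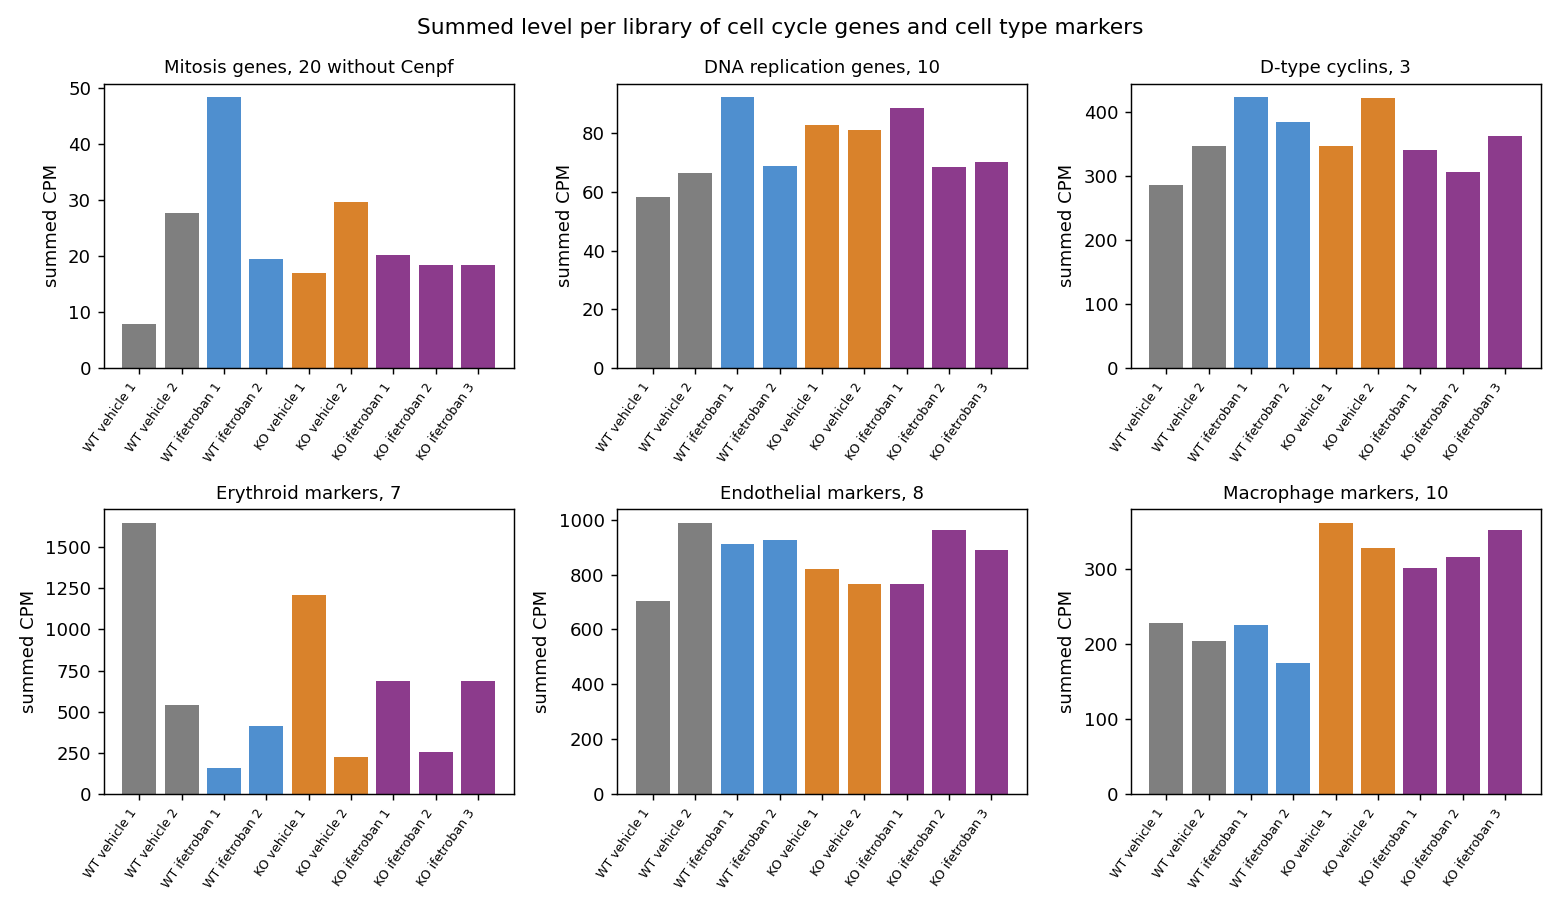
Summed CPM in each of the 9 libraries (bars, coloured by group) of the 20 mitosis genes without Cenpf, the 10 replication genes, the 3 D-type cyclins and the erythroid, endothelial and macrophage markers. The mitosis bar runs from 7.80 CPM in the library labelled WT vehicle 1 to 48.3 CPM in WT ifetroban 1, where the erythroid bars are the highest (1647.2 CPM) and the lowest (159.2 CPM).

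The comparison of KO with WT under vehicle asked how the knockout ventricle differed without the drug. None of the 41 genes passed the threshold (edgeR's quasi-likelihood test, Benjamini-Hochberg adjusted p of at least 0.280), where 0.0515% of all genes tested did. None passed with DESeq2's Wald test, which gave 5 of the 41 no adjusted p and called 144 of all 15549 genes tested. At an unadjusted p under 0.05 there were 3 of 41 (7.32%), close to the 7.90% of all genes. The values leaned to KO. They were above 0 for 35 of the 41 genes, against 47.1% of all genes, with a median log2 difference of 0.39 against -0.02. In 12 genes both KO vehicle libraries exceeded both WT vehicle libraries (29.3%, against 18.3% of all genes), and in 0 were both lower (17.6% of all genes).

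Replication genes carried the smallest p-values under vehicle. Mcm6, a subunit of the MCM helicase that unwinds DNA at replication forks (chromosome 1, 128331590 to 128359664, minus strand; its promoter is printed above), measured 5.44 and 6.52 CPM in WT vehicle and 9.83 and 10.2 CPM in KO vehicle. The groups did not overlap, and the log2 difference was 0.74 ± 0.18 (SE; edgeR adjusted p = 0.280). Mcm5, another subunit of the helicase (chromosome 8, 75109528 to 75128439, plus strand), measured 1.69 and 2.07 CPM in WT vehicle and 4.02 and 4.06 CPM in KO vehicle, a log2 difference of 1.10 ± 0.41 (edgeR adjusted p = 0.524). All 10 replication genes had a higher mean in KO, by a median of 0.51, and those of the helicase subunits Mcm2, Mcm3, Mcm4 and Mcm7 lay between 0.36 and 0.69. Pcna measured 19.7 and 19.6 CPM in WT vehicle and 23.3 and 22.0 CPM in KO vehicle, and Rrm1, the large subunit of ribonucleotide reductase, 11.8 and 12.1 against 14.0 and 11.6 CPM. The groups of Pcna did not overlap but differed by only 0.21 ± 0.19 on the log2 scale, and those of Rrm1 overlapped.

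Mitosis genes differed less from their own spread under vehicle. The median over the 21 genes was 0.43, with 18 above 0, and none had an unadjusted p under 0.05. Top2a, the topoisomerase that untangles sister chromatids (chromosome 11, 98992943 to 99024189, minus strand), measured 0.616 and 2.75 CPM in WT vehicle and 2.13 and 2.93 CPM in KO vehicle. The WT vehicle libraries thus lay on both sides of the lower KO library. Nusap1, a spindle protein (chromosome 2, 119618298 to 119651244, plus strand), measured 0.564 and 1.17 CPM in WT and 0.873 and 0.964 CPM in KO, within the WT range. Ccna2, the cyclin of S phase and G2 (chromosome 3, 36564865 to 36572150, minus strand), measured 0.923 and 1.54 CPM against 0.873 and 2.49 CPM. Cenpf (chromosome 1, 189640606 to 189688086, minus strand) went the other way, with 21 and 36.5 CPM in WT and 18.9 and 22.2 CPM in KO, a log2 difference of -0.49 ± 0.34.

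This lean under vehicle rested on a few libraries. Without the library labelled WT vehicle 1 the median fell to 0.08, with 24 genes above 0 and 17 below, and without WT vehicle 2 it was 0.90. Without KO vehicle 2 it was 0.17. Within the negative-slope libraries the library labelled WT vehicle 1 stood alone against both KO vehicle libraries. There the median was 0.90 and Ccnd1 measured 0.63. Mcm5 measured 0.97 without the library labelled WT vehicle 1. Mcm6 had log2 differences of 0.63 without the library labelled WT vehicle 1 and 0.89 within the negative-slope libraries (adjusted p from 0.0607 to 1.0 over 18 alternatives).

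Under ifetroban the lean was to WT, and Cdkn1a stood apart from the other genes. None of the 41 genes passed the threshold (edgeR, adjusted p of at least 0.162), where 0.0386% of all genes tested did. DESeq2's Wald test called 1 of the 41, Cdkn1a, and 290 of all 15549 genes tested. At an unadjusted p under 0.05 there were 3 of 41 (7.32%), against 9.36% of all genes. Values were above 0 for 5 of the 41 genes, against 47.8% of all genes, with a median log2 difference (KO minus WT) of -0.34 against -0.01 for all genes. In 8 genes all 3 KO libraries lay below both WT libraries (19.5%, against 15.0% of all genes): Mki67, Top2a, Ccna2, Kif11, Nusap1, Rrm1, Rrm2 and Ccnd2. Cdkn1a was the 1 gene in which all KO libraries lay above both WT libraries (2.44%, against 14.0% of all genes).

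Nusap1 and Top2a had the smallest p-values of the mitosis genes under ifetroban. Nusap1 measured 1.98 and 0.749 CPM in WT ifetroban and 0.328, 0.636 and 0.363 CPM in KO ifetroban, a log2 difference of -1.58 ± 0.52 (edgeR adjusted p = 0.335). Top2a measured 7.19 and 2.04 CPM in WT and 1.97, 1.53 and 1.74 CPM in KO, a log2 difference of -1.41 ± 0.57 (adjusted p = 0.477). In both genes WT ifetroban 1 was the highest of the 9 libraries, and WT ifetroban 2 lay just above the KO ifetroban libraries. Ccna2 measured 2.95 and 1.29 CPM in WT and 1.17, 0.985 and 1.21 CPM in KO. Mki67, the marker of cycling cells known as Ki-67 (chromosome 7, 135689788 to 135716379, minus strand), measured 11.5 and 4.04 CPM in WT and 2.53, 3.75 and 3.47 CPM in KO, again with WT ifetroban 1 the highest, and a log2 difference of -1.25 ± 0.63 (adjusted p = 0.608).

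Without WT ifetroban 1 the differences of these genes were smaller. The median over the 41 genes turned to 0.12, with 24 above 0, Nusap1 measured -0.73 (adjusted p = 0.933) and Top2a -0.23 (adjusted p = 0.971). Without WT ifetroban 2 the median was -0.69. Within the positive-slope libraries it was -0.38, with Nusap1 at -1.40 and Top2a at -1.49, and WT ifetroban 1 is among these libraries. The 10 replication genes had a median of -0.11, and Mcm6 (9.53 and 7.37 CPM in WT against 8.38, 7.72 and 8.44 CPM in KO) and Mcm5 (6.10 and 3.12 against 5.15, 2.45 and 3.15 CPM) overlapped between the groups.

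**Figure D3:**
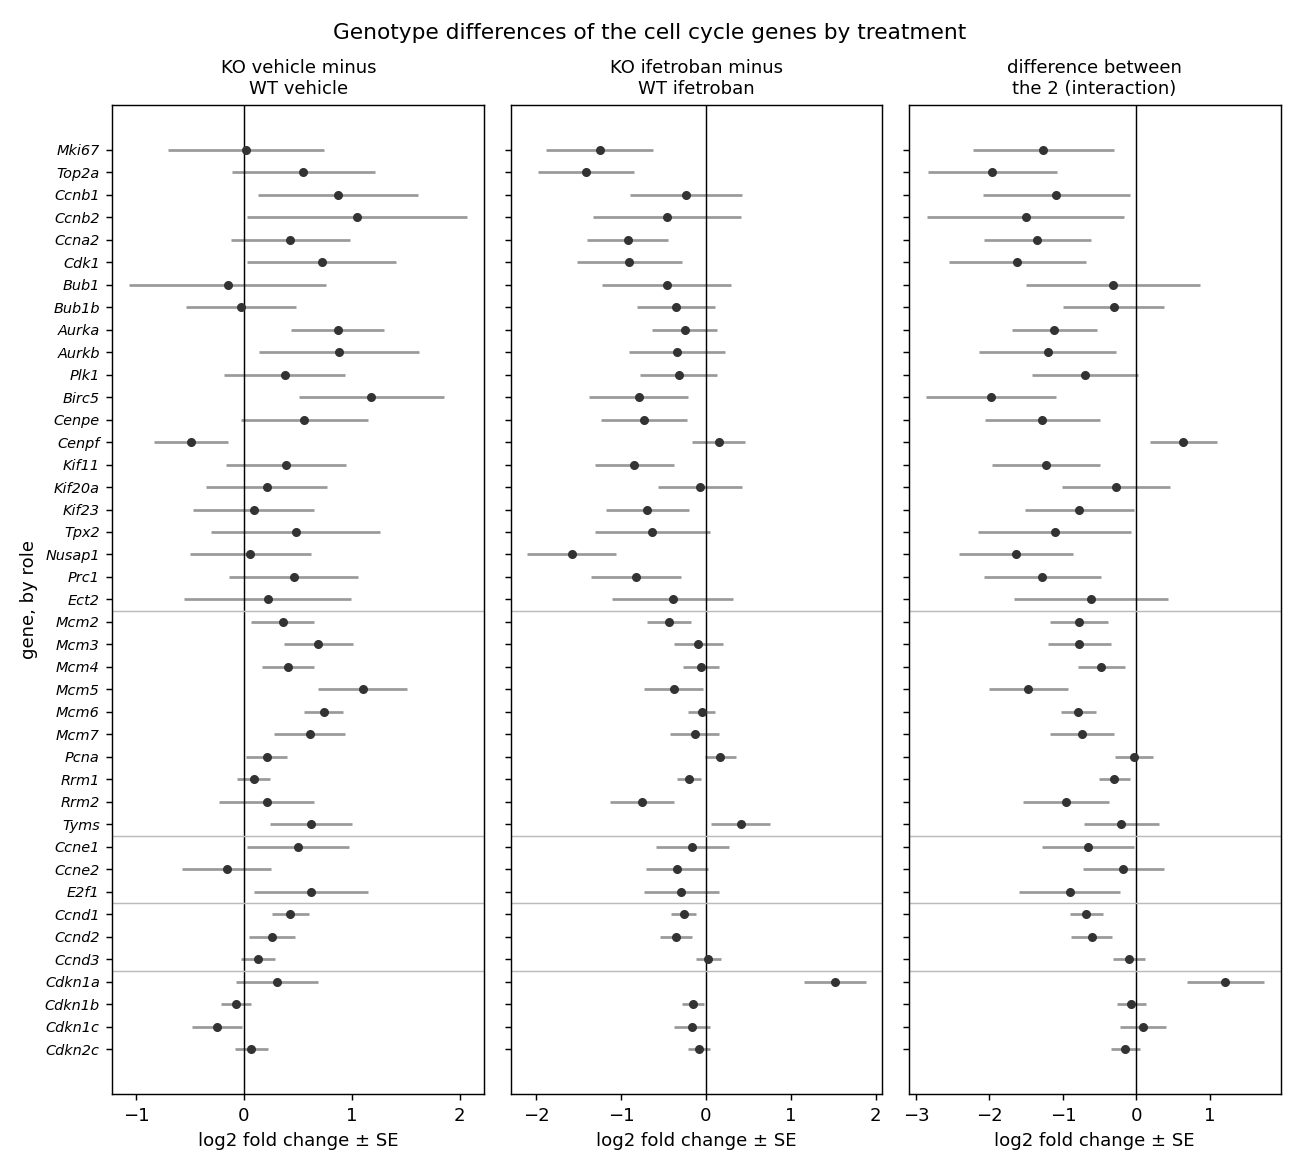
Log2 fold change ± SE (edgeR) of each of the 41 genes, by role, for KO minus WT under vehicle, KO minus WT under ifetroban, and the difference between these values (interaction). Most points lie right of 0 under vehicle (35 of 41) and left of 0 under ifetroban (36 of 41), and Cdkn1a lies at 1.52 under ifetroban.

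Cdkn1a encodes p21, which binds cyclin-CDK complexes and the clamp Pcna (chromosome 17, 29090979 to 29100722, plus strand; both promoters are printed above). It measured 27.9 and 18.9 CPM in WT vehicle, 12.7 and 20.7 CPM in WT ifetroban, 39.1 and 18.8 CPM in KO vehicle, then 54.6, 54.3 and 34.6 CPM in KO ifetroban. All KO ifetroban libraries lay above both WT ifetroban libraries, while KO vehicle overlapped WT vehicle. Under ifetroban the means were 47.8 ± 11.5 CPM in KO (SD, n = 3) and 16.7 ± 5.67 CPM in WT (SD, n = 2), a log2 difference of 1.52 ± 0.36 (edgeR adjusted p = 0.162, unadjusted p = 0.00203). DESeq2 gave the same difference an adjusted p of 0.00125, and adjusted p ranged from 0.00125 to 0.754 over 18 alternatives. With each library left out in turn the difference stayed between 1.21 (without WT ifetroban 1) and 1.91 (without WT ifetroban 2). The positive-slope libraries alone gave 1.43 (edgeR adjusted p = 0.284).

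The other comparisons of Cdkn1a were smaller against their spread. Under vehicle KO exceeded WT by 0.31 ± 0.38 on the log2 scale, which turned to -0.32 without KO vehicle 1. The ifetroban values were 0.72 ± 0.35 in KO (edgeR adjusted p = 0.862) and -0.48 ± 0.38 in WT (edgeR adjusted p = 0.881), and their difference, the interaction, was 1.21 ± 0.52 (edgeR adjusted p = 1.0). With KO ifetroban 1, whose labels conflict, counted as vehicle, the KO minus WT difference was 1.42 under ifetroban and 0.68 under vehicle, and the interaction was 0.73. Over both treatments KO exceeded WT by 0.96 ± 0.32 (edgeR adjusted p = 0.164), which passed the threshold with DESeq2 (0.95, adjusted p = 0.0288) and without KO vehicle 2 (1.25, edgeR adjusted p = 0.0491).

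The other 3 inhibitors showed no difference between groups with an unadjusted p under 0.05. Cdkn1b, which encodes p27 (chromosome 6, 134920401 to 134925513, plus strand), measured 34.2 and 41.6 CPM in WT vehicle, 39.4 and 37 CPM in WT ifetroban, 35.8 and 36.3 CPM in KO vehicle, then 31.8, 37.4 and 34.2 CPM in KO ifetroban. Cdkn1c, which encodes p57 and is imprinted (chromosome 7, 143458350 to 143461050, minus strand), measured 23.1 and 18.6, 17.2 and 17.1, 15.6 and 19.6, and 16.0, 11.5 and 18.6 CPM in that order. Cdkn2c, which encodes p18 and binds CDK4 and CDK6 (chromosome 4, 109660876 to 109667189, minus strand), measured 8.87 and 9.19, 10.3 and 9.53, 9.19 and 9.76, and 9.97, 8.90 and 9.28 CPM. In the 4 comparisons of 2 groups their log2 differences lay between -0.28 and 0.14, each with an unadjusted p of at least 0.245. Summed, these 3 genes stayed between 57.8 and 69.5 CPM, so that the sum of all 4 inhibitors (79.7 to 112.3 CPM) mostly followed Cdkn1a.

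**Figure D4:**
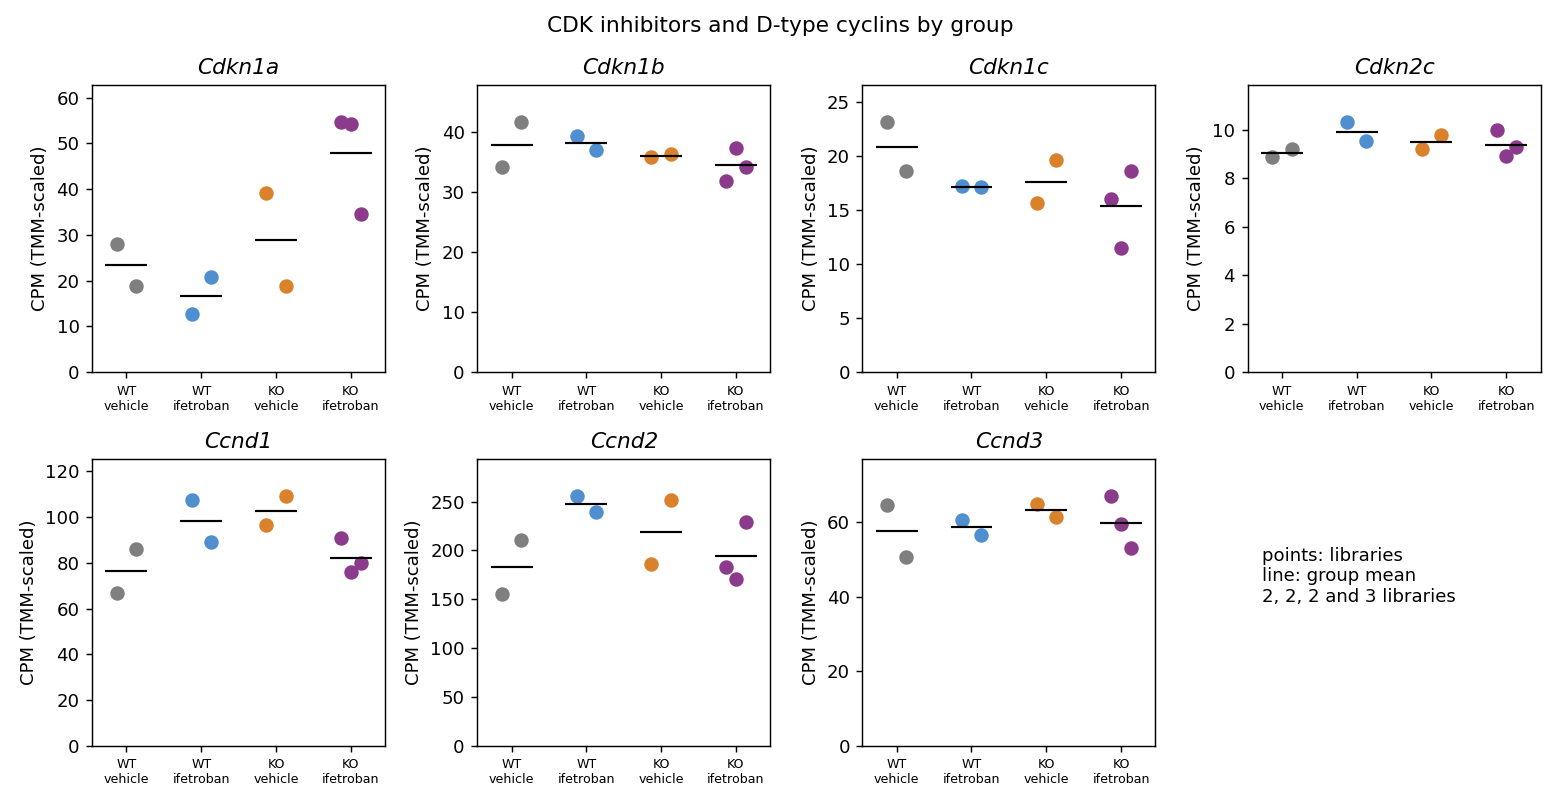
CPM of the 4 CDK inhibitors and 3 D-type cyclins in each library (points) with the group mean (line), for 2, 2, 2 and 3 libraries. Cdkn1a is at 34.6 to 54.6 CPM in KO ifetroban and at 12.7 and 20.7 CPM in WT ifetroban, while the groups of Cdkn1b, Cdkn2c and Ccnd3 lie close together.

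Of the D-type cyclins, which couple growth signals to the cycle, Ccnd1 was the 1 with an unadjusted p under 0.05 in any comparison. Ccnd1 (chromosome 7, 144929931 to 144939869, minus strand) measured 66.9 and 85.9 CPM in WT vehicle, 107.3 and 89.2 CPM in WT ifetroban, 96.4 and 109.2 CPM in KO vehicle, then 90.8, 76.1 and 80.0 CPM in KO ifetroban. WT vehicle lay below both KO vehicle and WT ifetroban with no overlap, and KO ifetroban lay below KO vehicle. The log2 differences were 0.43 ± 0.17 for KO against WT under vehicle (edgeR adjusted p = 0.561) and -0.26 ± 0.15 under ifetroban, with an interaction of -0.68 ± 0.23 (edgeR adjusted p = 1.0). The difference under vehicle was 0.26 when the library labelled WT vehicle 1 was left out (adjusted p = 0.522).

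Ccnd2 (chromosome 6, 127125162 to 127152193, minus strand), the most abundant per kilobase of the 41 genes, measured 155.5 and 211.1 CPM in WT vehicle, 255.6 and 239.6 CPM in WT ifetroban, 186.3 and 251.9 CPM in KO vehicle, then 182.8, 170.5 and 229.6 CPM in KO ifetroban. Its WT ifetroban libraries lay above those of WT vehicle and KO ifetroban, with log2 differences of 0.43 ± 0.21 and -0.35 ± 0.19 (edgeR unadjusted p = 0.0681 and 0.0979). Ccnd3 (chromosome 17, 47505051 to 47599691, plus strand) measured 50.7 to 66.9 CPM over the 9 libraries, and its groups overlapped in all 4 comparisons of 2 groups. Ccnd1, Ccnd2 and Ccnd3 overlap genes of the other strand, as do Ccna2, Kif20a, Nusap1, Prc1, Mcm7 and Ccne2. The sources used here do not say whether strand was used in counting, so reads of such pairs may be mixed. Values of Ccnb1, Pcna, Ccnd2 and Ccnd3 were not whole numbers in 4 to 9 libraries.

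The genes of entry into S phase had low counts. E2f1, an activator of replication genes (chromosome 2, 154559407 to 154569892, minus strand), measured 1.03 and 0.972 CPM in WT vehicle, 3.59 and 1.04 CPM in WT ifetroban, 1.59 and 1.49 CPM in KO vehicle, then 2.39, 1.81 and 1.53 CPM in KO ifetroban. Ccne1, a cyclin of CDK2 (chromosome 7, 38097984 to 38107534, minus strand), measured 1.03 and 1.01, 1.37 and 0.958, 1.44 and 1.45, and 1.26, 0.509 and 1.41 CPM in that order. Both were higher in both KO vehicle libraries than in WT vehicle, by 0.62 ± 0.53 and 0.50 ± 0.47 on the log2 scale (edgeR unadjusted p = 0.265 and 0.310). Ccne2, the other cyclin E, differed by -0.34 to -0.05 in the 4 comparisons of 2 groups.

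Ifetroban in WT was compared as the effect of the drug on a healthy ventricle. None of the 41 genes passed the threshold (edgeR, adjusted p of at least 0.881), nor did any with DESeq2, and 0% of all genes tested passed. At an unadjusted p under 0.05 there were 3 of 41 (7.32%), against 2.25% of all genes: Mcm5, Mcm6 and E2f1. Values were above 0 for 37 of the 41 genes, all 21 mitosis genes among them, against 51.9% of all genes, with a median log2 difference of 0.59 against 0.01 for all genes. In 12 genes both ifetroban libraries exceeded both vehicle libraries (29.3%, against 17.6% of all genes), and in 1, Cdkn1c, both were lower (13.8% of all genes). The difference was 1.29 ± 0.41 for Mcm5 on the log2 scale, 0.50 ± 0.18 for Mcm6 and 1.21 ± 0.52 for E2f1 (edgeR adjusted p = 0.881 for each). This comparison holds the library labelled WT vehicle 1 and WT ifetroban 1, at the ends of the range. Its median was 0.20 without the library labelled WT vehicle 1, 0.11 without WT ifetroban 1 and 1.2 without WT vehicle 2. Without the library labelled WT vehicle 1, Mcm5 measured 1.14 and Mcm6 0.36. Without WT ifetroban 1, E2f1 measured 0.06 and Mcm5 0.73. Within the positive-slope libraries, where WT vehicle 2 is the only vehicle library, the median was 0.21. With the length slope as a model term it was 0.49, with 34 of the 41 genes above 0.

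Ifetroban in KO asked what the drug changed in the diseased ventricle. None of the 41 genes passed the threshold (edgeR, adjusted p of at least 0.862), nor did any with DESeq2, and 0% of all genes tested passed. At an unadjusted p under 0.05 there was 1 of 41 (2.44%), against 3.96% of all genes. Values were above 0 for 8 of the 41 genes, against 51.2% of all genes, with a median log2 difference of -0.19 against 0.01. In 8 genes all 3 ifetroban libraries lay below both vehicle libraries (19.5%, against 9.76% of all genes): Top2a, Aurka, Birc5, Nusap1, Mcm6, Mcm7, Ccne1 and Ccnd1. The median turned to 0.05 without KO vehicle 2. Within the negative-slope libraries it was -0.03, where KO ifetroban 1, whose labels conflict, is the only ifetroban library. With the length slope as a model term it was -0.3, and without KO ifetroban 1 it was -0.29.

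Cenpf was the gene with the smallest p for ifetroban in KO, and 1 of the 8 genes with a value above 0. It measured 18.9 and 22.2 CPM in KO vehicle, against 24.9, 49.6 and 27.8 CPM in KO ifetroban, and was the 1 gene higher in all ifetroban than in both vehicle libraries (2.44%, against 10.4% of all genes). The log2 difference was 0.73 ± 0.31 (edgeR adjusted p = 0.862). Without KO ifetroban 2 it was 0.37. Within the negative-slope libraries, where KO ifetroban 1 is the only ifetroban library, it was 0.28. Over the 9 libraries Cenpf was lowest in the libraries labelled KO vehicle 1 and WT vehicle 1, and each of the 4 negative-slope libraries (18.9 to 24.9 CPM) lay below all 5 positive-slope ones (27.8 to 49.6 CPM). Its transcript of 11130 bases is the longest of the 41.

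The interaction asked whether the KO minus WT difference changed with ifetroban, which is the same as whether the ifetroban effect differed by genotype. None of the 41 genes passed the threshold (edgeR and DESeq2, adjusted p = 1.0 for each with edgeR), and 0% of all genes tested did. Values were above 0 for 3 of the 41, against 53.2% of all genes, with a median of -0.78 against 0.02 for all genes. At an unadjusted p under 0.05 there were 4 of 41 (9.76%), against 1.92% of all genes: Mcm6 at -0.79 ± 0.24, Ccnd1 at -0.68 ± 0.23, Mcm5 at -1.47 ± 0.54 and Cdkn1a at 1.21. The median was -0.33 without WT ifetroban 1, -0.48 without the library labelled WT vehicle 1, -0.48 without KO vehicle 2 and -1.47 without WT vehicle 2. The comparisons share groups with each other (WT vehicle enters both genotype under vehicle and ifetroban in WT, for example), so that their leans are not separate evidence. With KO ifetroban 1 counted as vehicle the medians were 0.42 for genotype under vehicle, -0.40 under ifetroban, -0.32 for ifetroban in KO and -0.80 for the interaction, each with 0 genes past the threshold.

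**Figure D5:**
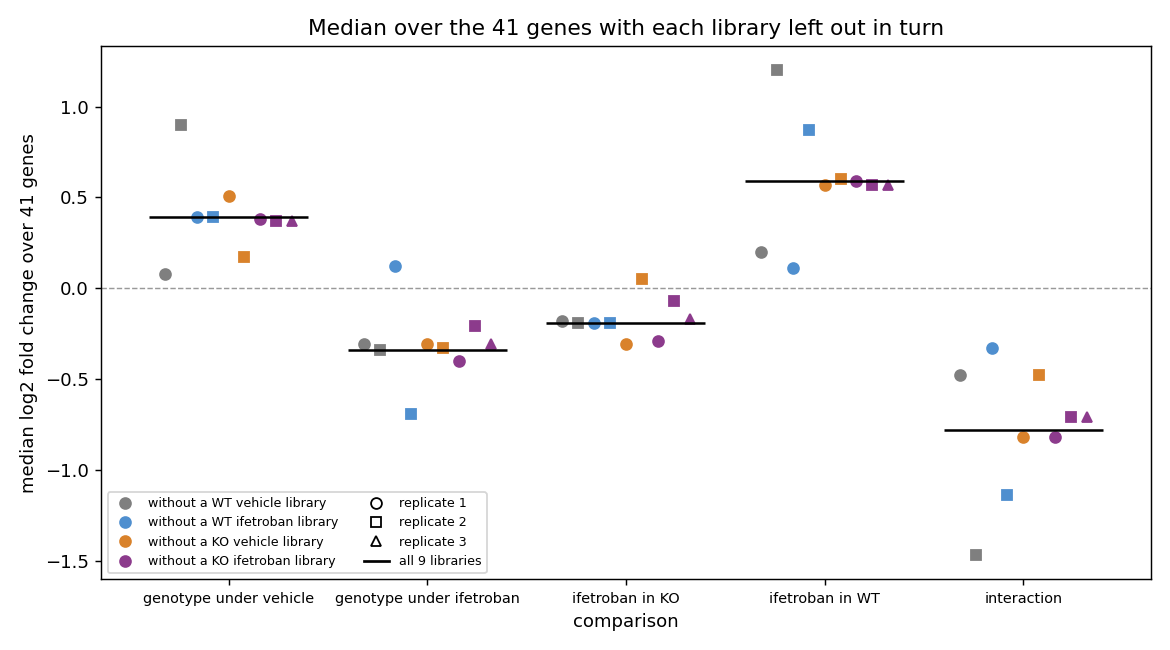
Median log2 fold change over the 41 genes in 5 comparisons, with all 9 libraries (black line) and with each library left out in turn (points, coloured by group and shaped by replicate). The points spread from 0.08 to 0.90 for genotype under vehicle, cross 0 for genotype under ifetroban (-0.69 to 0.12) and for ifetroban in KO, and stay on the same side of 0 for ifetroban in WT (0.11 to 1.2) and the interaction (-1.47 to -0.33).

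The additive fits gave each effect averaged over the other factor. For genotype over both treatments 0 of the 41 passed the threshold with edgeR, where 2.33% of all genes did. DESeq2's Wald test called 1 of the 41 (Cdkn1a) and 896 of all 15549 genes tested. With edgeR 1 had an unadjusted p under 0.05 (Cdkn1a, 2.44%, against 16.1% of all genes). The median was -0.07, with 18 of the 41 genes above 0, against 47.0% of all genes. It turned to 0.23 without WT ifetroban 1 (33 above 0) and was -0.19 without KO vehicle 2 (12 above 0). For ifetroban over both genotypes 0 of the 41 passed with edgeR (0% of all genes) or with DESeq2's Wald test (2 of all genes tested). With edgeR 0 had an unadjusted p under 0.05 (7.96% of all genes). The median was 0.11, with 30 of the 41 above 0 against 51.3% of all genes. That median turned to -0.10 without WT ifetroban 1 and to -0.05 without the library labelled WT vehicle 1, and was 0.34 without KO vehicle 2. In the genotype fit 7 of the 10 macrophage markers passed the threshold, all higher in KO, among them Cd68 at 1.18 and Adgre1 at 0.68 (edgeR adjusted p = 0.0170), and so did the collagen genes Col1a1 (0.91), Col1a2 (0.72) and Col3a1 (1.16) of the 8 fibroblast markers.

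Other genes of the same steps, outside the 41, gave no calls in any of the 7 comparisons with edgeR. The list of 30 further mitosis genes (27 tested) had medians of 0.43 for genotype under vehicle, -0.43 under ifetroban, -0.22 for the drug in KO, 0.85 for the drug in WT and -0.94 for the interaction. Medians over all genes tested lay between -0.02 and 0.02. The same libraries stood at the ends: the 30 genes summed to 89.2 CPM in the library labelled WT vehicle 1, the lowest, and 142.8 CPM in WT ifetroban 1, the highest. Nuf2, for example, was at 1.09 CPM in WT ifetroban 1 and at the floor of 0.125 CPM in WT ifetroban 2. It was also at the floor in both WT vehicle libraries (0.154 and 0.121 CPM). The further mitosis genes with the smallest p in the 4 comparisons of 2 groups were the condensin genes Ncapd2 and Smc2, at 0.57 ± 0.21 and 0.75 ± 0.27 for ifetroban in WT (edgeR adjusted p = 0.881 for both). The 29 further replication genes (28 tested) had medians between -0.18 and 0.20. Rfc4, of the clamp loader, measured -0.57 ± 0.20 for ifetroban in KO (adjusted p = 0.862).

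The lists of RB-E2F and CDK genes and of p53 targets and growth arrest genes had medians near 0. The 24 genes of the RB-E2F axis and the CDKs (23 tested) had medians between -0.07 and 0.09. CDKs and their inhibitors stand side by side in this list, so that its median can hide opposed changes. In the 4 comparisons of 2 groups the smallest p-values were those of Cdk7, the CDK-activating kinase, at 0.32 ± 0.12 for ifetroban in KO (edgeR adjusted p = 0.862) and Wee1, which inhibits CDK1, at -0.92 ± 0.36 for genotype under ifetroban (edgeR adjusted p = 0.453). The 20 p53 targets and growth arrest genes, of which Cdkn1a is not counted as a member, had medians between -0.12 and 0.02, and -0.04 for genotype under ifetroban, where Cdkn1a measured 1.52. These 20 genes went both ways there, from -0.76 to 0.75, and 3 had an edgeR unadjusted p under 0.05 (9.36% of all genes tested). For genotype over both treatments 7 of the 20 did, from a list spanning -0.48 to 0.59 (16.1% of all genes tested). The smallest edgeR adjusted p there was 0.0867 (Sesn1). Phlda3 measured 0.90 ± 0.23 for genotype under vehicle (edgeR adjusted p = 0.310) and Sesn1 -0.51 ± 0.14 for genotype under ifetroban (edgeR adjusted p = 0.240).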

How the data were processed

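Left ventricle RNA of 9 mouse libraries was analysed from the expected counts per gene that the authors deposited. The submitters' processing notes name bcl2fastq, STAR, Partek and mm10, with no versions. How reads were counted is unstated there. Of the deposited estimated counts, 81.2% lay within 0.01 of a whole number. They were rounded, filtered with filterByExpr (minimum count 10, 15549 genes left), scaled with TMM factors and tested with the quasi-likelihood test of edgeR 4.0.16 (R 4.3.3, robust) on 4 group means, or on genotype plus treatment for an effect over the other factor. The common biological coefficient of variation was 0.176. P-values were adjusted by Benjamini-Hochberg over all genes tested, with a threshold of 0.05, and the SE is the log2 fold change over the square root of F. Gene coordinates are the deposited mm10 ones, with 1 subtracted from the end.

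Libraries were grouped by title. The 41 genes and the other lists were chosen with earlier results of these data known. Values in every library are given for the D-type cyclins, the inhibitors and, per other role, the 2 genes with the highest CPM per kilobase and the 2 with the smallest p over the 4 comparisons of 2 groups. Of each pathway list the 2 genes with the smallest p are named, here too over the 4 comparisons of 2 groups, except 1 gene that is not reported here. Mki67 and members named in counts fall outside this rule, and were named after their values were seen. Correlations of the deviations of same-numbered replicates ranged from -0.06 to 0.50, not all above 0.1, so the numbers were not taken as pairs. Alternatives were DESeq2 1.42.0 (size factors and Wald test), no filter on low counts, a stricter filter (1 CPM), only the groups compared, a replicate block, KO ifetroban 1 as vehicle, a model term for the length slope, libraries of either slope fitted separately, and each library left out. Length deviations used log2 CPM with a prior count of 2. On simulated counts for genotype under vehicle (15292 genes), 51.5% of 99 genes with a log2 change of 1 and 93.9% of 99 with a change of 2 were recovered, with 6 false calls. The simulation gave every gene the common coefficient of variation of 0.176 and no dependence on transcript length. The fitted SE of low-count members was large (1.02 for Ccnb2 in KO minus WT under vehicle), so these shares do not carry over to them.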

Additional observations from a re-analysis of the deposited data

How the results depend on the processing

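The count of genes past the threshold among the 41 was 0 in all 7 comparisons, and stayed 0 under the alternatives except in 4 cases. In 1 case, genotype under vehicle within the negative-slope libraries (Ccnd1 and Mcm3), 1 library labelled WT stands alone and is assumed to vary like the others. No weight is placed on that count. The count was 1, Cdkn1a, with DESeq2's Wald test for genotype under ifetroban (290 of all 15549 genes tested) and for genotype over both treatments (896 of all). It was 1, again Cdkn1a, for genotype over both treatments without KO vehicle 2 (0 to 1 over the libraries left out), where 228 of 16051 genes tested passed. The cause of these changes was not tested. With the replicate number as a block the count was 0 in each comparison, and Cdkn1a under ifetroban measured 1.68 (edgeR adjusted p = 0.0633). The stricter filter left 28 of the 41 genes. Groups of 2 or 3 libraries limit the precision, and so does depth for the mitosis genes other than Cenpf, whose means were 0.363 to 4.48 CPM.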
